A study of Mus musculus with 6 samples.

Results

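The 42 interferon-stimulated genes described here were found by symbol in both deposited tables of RNA-seq values from mouse Treg cells. These regulatory T cells carry CD4, depend on the transcription factor Foxp3 and hold immune responses in check. Each of the 42 symbols had 1 row among the 14608 genes of each table. The 6 libraries came from mouse spleens: 2 wild type (WT), 2 heterozygous for a Cdc42 knockout (Cdc42+/-) and 2 homozygous for it (Cdc42-/-). The labels do not say how many mice gave each library, so p-values measure only the spread between these libraries, which may be technical. Per the labels' protocols, CD4 cells were first enriched magnetically and then sorted for CD4 and YFP. The sort on YFP applied to the WT cells as well. The labels name no Cre line, promoter or exon, and the age and sex of the mice are not given in the sources used here. Cdc42 encodes a small GTPase that organises the actin cytoskeleton. Levels are RPKM (reads scaled by gene length and library size). This puts genes and libraries on 1 scale, but does not correct for libraries that differ in the cells they hold.

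Interferons are cytokines released during infection and inflammation. Type I interferons (alpha and beta) signal through the Ifnar1-Ifnar2 receptor to a transcription factor complex that holds Stat2 and Irf9 and binds the interferon-stimulated response element (ISRE). Interferon gamma, a T cell and NK cell product, signals through Ifngr1-Ifngr2 to genes with a gamma-activated site (GAS), among them Irf1 and many GTPase genes. In Treg cells both kinds of interferon are known to affect suppressive function and stability.

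The promoters of these genes are shown because the ISRE is the element through which type I interferon acts and because all GTPase genes with a promoter window here hold it. Of the 42 genes, 29 had a window of 300 bases, 250 before and 50 after the start, in the RefSeq promoter table of GRCm38.p6. The ISRE core (GAAA, any pair of bases, then GAAA), searched on both strands, was present in 18 of the 29 (62.1%), against 3.99% of the 27025 genes in that table. The shorter GAS core TTCNNNGAA was present in 11 of the 29 (37.9%), against 9.55%. Both were found in 6 genes and neither in 6. Of the 11 GTPase genes 7 had a window (not Gbp4, Gbp8, Gbp9 and Iigp1) and all 7 held the ISRE core, as did 6 of 8 sensor genes, 3 of 8 antiviral effector genes, 1 of 4 transcription factor genes and 1 of 2 in the group of Isg15. The GAS core was present in 4 of the 7 GTPase genes with a window, but not in Gbp2 or Gbp3. It was in 2 of 8 sensor, 4 of 8 antiviral effector, 1 of 4 transcription factor and 0 of 2 Isg15 group genes. A match of letters is a description and shows no binding. Stretches upstream of the start follow, with the ISRE core in capitals on whichever strand it lay. Each reads 5′ to 3′ along the strand of its gene. Gbp2 and Gbp3 are shown as genes that passed the test below and hold the motif, while Isg15, Ifit1, Oas3 and Igtp were chosen after their values were seen, as further examples.
Gbp2, chr3:142620544-142620643, plus strand: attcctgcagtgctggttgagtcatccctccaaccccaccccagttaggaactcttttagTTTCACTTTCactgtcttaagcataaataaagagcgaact
Gbp3, chr3:142559939-142560015, plus strand: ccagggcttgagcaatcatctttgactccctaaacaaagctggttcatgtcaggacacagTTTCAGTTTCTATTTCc
Igtp, chr11:58199502-58199551, plus strand: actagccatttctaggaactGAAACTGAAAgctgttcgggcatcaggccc
Isg15, chr4:156200855-156200916, minus strand: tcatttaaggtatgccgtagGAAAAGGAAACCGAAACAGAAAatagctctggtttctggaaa
Ifit1, chr19:34640765-34640833, plus strand: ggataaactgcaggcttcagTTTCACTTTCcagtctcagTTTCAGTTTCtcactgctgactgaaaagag
Oas3, chr5:120777705-120777754, minus strand: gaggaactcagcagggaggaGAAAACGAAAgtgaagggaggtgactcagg
In Isg15 the core occurred 3 times in overlapping frames, in Gbp3 2 times in overlapping frames, and in Ifit1 2 times apart.

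The libraries held between 8556576 and 17796100 reads in genes. Cdc42 itself was at 166 and 161 RPKM for WT mice, 164 and 156 for Cdc42+/- mice and 122 and 173 for Cdc42-/- mice, so this gene gave no check of the genotypes, which rest on the labels. Replicate 2 of Cdc42-/- stood apart: a list of monocyte, macrophage and dendritic cell markers (17 of its 18 symbols measured) summed to 1504 RPKM there and to between 149 and 233 RPKM in the other libraries. Without Ctss, which was at 110 RPKM or more in every library, the list summed to 19.6 and 25.7 RPKM for WT mice, 48.4 and 47.6 for Cdc42+/- mice and 38.7 and 1232 for Cdc42-/- mice. All 17 were highest in that library, with Lyz2, a lysozyme of myeloid cells, at 600 RPKM. Neutrophil markers summed to 524 RPKM in it, against 19.7 to 62.5 RPKM elsewhere, and Treg markers to 788 RPKM, against 990 to 1217 RPKM. Erythroid markers (3 of 6 measured) summed to 19.4 RPKM in it, against 0.367 to 3.85 RPKM. B cell and plasma cell markers differed in more libraries, with sums of 26.6 and 24.2 RPKM for WT mice, 109 and 86.8 for Cdc42+/- mice and 13.1 and 141 for Cdc42-/- mice. Jchain, the joining chain of secreted antibodies, was at 69.2 to 123 RPKM in the 3 libraries with the high sums. Plasmacytoid dendritic cell markers, of the cells best known for making type I interferon, summed to 8.91 RPKM, within the 5.9 to 10.6 RPKM of the other libraries. Of that list, Siglech was at 0.204 RPKM or less in every library, and Tcf4 was highest in replicate 2 of Cdc42-/-, at 3.73 RPKM against 0.971 to 1.8 RPKM. Foxp3 was lowest there too, at 58.4 RPKM against 103 to 131 RPKM elsewhere. Of the other Treg markers, Ctla4 was higher for Cdc42-/- mice, at 202 and 201 RPKM against 130 to 157 RPKM. Cd3e (237 and 202 RPKM, against 372 to 395) and Ikzf2 (82.9 and 56.7 RPKM, against 125 to 137) were lower in both Cdc42-/- libraries. Cxcr2 of the neutrophil list was at 5.65 RPKM in replicate 2 of Cdc42-/-, within the 4.27 to 5.85 RPKM of the other libraries. The Y-linked genes summed to 116 and 121 RPKM for WT mice, 0.272 and 0.0747 for Cdc42+/- mice and 0.438 and 93 for Cdc42-/- mice. Xist, the transcript of the inactive X chromosome, was at 0.199 and 1.13 RPKM for WT mice, 99.3 and 93.3 for Cdc42+/- mice and 87.4 and 21.2 for Cdc42-/- mice. Replicate 2 of Cdc42-/- thus held Xist and Y-linked reads together, and whether it holds RNA of more than 1 mouse was not tested. Sex-linked expression and genotype therefore cannot be told apart in the comparison of Cdc42+/- with WT. The same limit holds for Cdc42-/- with WT, since both Cdc42-/- libraries had more Xist and a lower Y-linked sum than both WT libraries. In bulk libraries such as these, fewer cells of a type and less RNA per cell cannot be told apart.

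**Figure D1:**
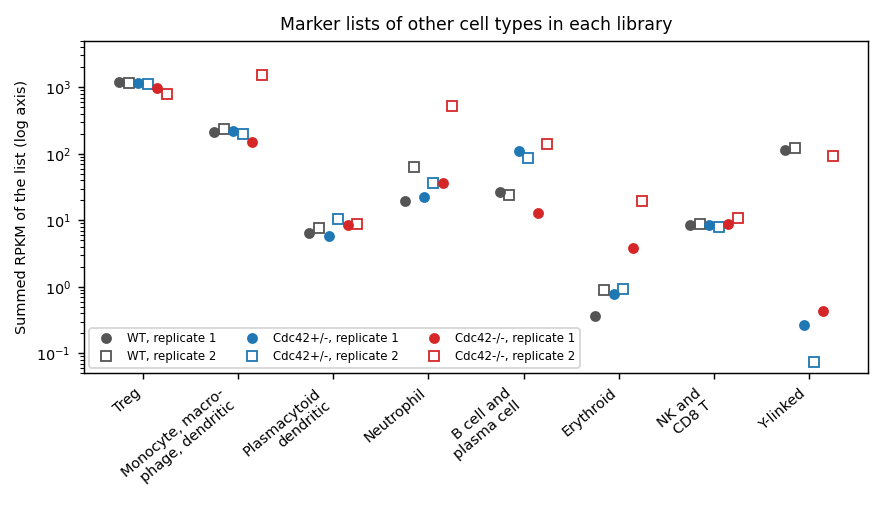
Summed RPKM (log axis) of each marker list in the 6 libraries, with WT in grey, Cdc42+/- in blue and Cdc42-/- in red, and replicate 1 as filled circles and replicate 2 as open squares. Replicate 2 of Cdc42-/- lies highest for the monocyte, macrophage and dendritic list (1504 RPKM) and the neutrophil list (524 RPKM), and the Y-linked sums separate WT from Cdc42+/-.

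WT Treg cells held most of these transcripts at moderate to high levels. The median WT level of the 42 genes was 37.6 RPKM, against 7.31 RPKM over all genes, and 34 of them were at 10 RPKM or more. In 4 genes the WT level exceeded 100 RPKM, in this order: Samhd1 (309 ± 16.5 RPKM, SD, n = 2), Ifi27l2a (174 ± 13.5), Igtp (142 ± 6.62) and Irf1 (102 ± 4.63). Samhd1 degrades deoxynucleotides, Ifi27l2a is a small membrane protein, Igtp is a GTPase that guards against intracellular parasites, and Irf1 is a transcription factor. The WT libraries of Ifi27l2a and Igtp did not overlap, and neither did those of neighbours in this order. At the low end, 5 genes were under 5 RPKM: Oas2 (4.21 ± 0.935), Oasl2 (3.6 ± 0.278), Mx1 (2.18 ± 0.754), Rsad2 (1.85 ± 0.787) and Ifi44 (0.381 ± 0.255). Their WT libraries overlapped for Oas2 with Oasl2 and for Mx1 with Rsad2. Mx1 and Rsad2 (viperin) encode antiviral proteins that are among the most strongly induced targets of type I interferon. Ifi44 was at 0.562 and 0.201 RPKM for WT mice, 1.1 and 0.444 for Cdc42+/- mice and 0 and 0.565 for Cdc42-/- mice. Its mean over the libraries was under the minimum of 0.5 RPKM set for testing, and the 0 reads in replicate 1 of Cdc42-/- allow up to 3 reads by counting error. The other 41 genes were tested. The smallest number of reads behind any of their values was 15, for Oas1a, and 6 of the 42 genes had under 100 reads in some library.

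**Figure D2:**
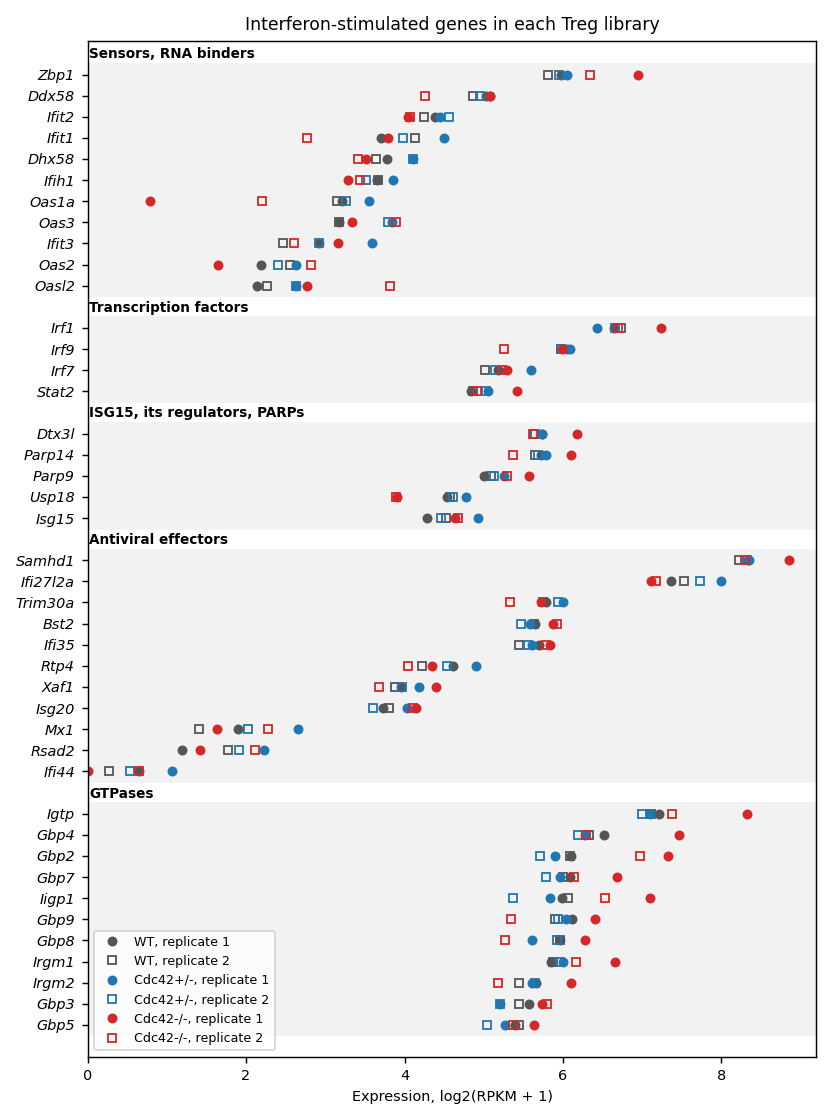
Level of each of the 42 genes in each library as log2(RPKM + 1), grouped by role and ordered by WT level within a role, with symbols as in the marker plot. The red filled circles (Cdc42-/- replicate 1) lie above the WT symbols for all 11 GTPases, while red open squares (replicate 2) lie on either side of them.

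No interferon-stimulated gene passed the test in Cdc42+/- Treg cells against WT. The test was limma on log2(RPKM + 1) with all 6 libraries in the fit, and passing means a Benjamini-Hochberg adjusted p under 0.05 over the 12233 genes tested. The share of all genes that passed was 0%, and limma's voom on the recovered reads also gave 0 of these 41. Xist did not pass either (limma adjusted p 0.206), at 0.199 and 1.13 RPKM in WT and 99.3 and 93.3 RPKM in Cdc42+/-. The count of 0 therefore does not show that these genes were unchanged. An unadjusted p under 0.05 was found for 4 of the 41 (9.76%), against 4.32% of all genes. The median log2 fold change was 0.10, against 0.03 over all genes, and it was 0.05 without replicate 1 of Cdc42+/- and 0.15 without replicate 2. Both Cdc42+/- libraries lay above both WT libraries for 15 genes (36.6%, against 26.2% of all genes) and below both for 9 (22%, against 17%).

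In Cdc42-/- Treg cells against WT, Gbp2 rose and Usp18 fell. These 2 of 41 genes are 4.88%, against 11.4% of all genes tested, so the list did not pass more often than other genes. In the direction of Gbp2 the share of all genes was 6.86%, and in that of Usp18 it was 4.57%. The median log2 fold change of the list was 0.21, against 0.01 over all genes, and 27 of the 41 values were above 0. This median was 0.02 without replicate 1 of Cdc42-/- and 0.09 without replicate 2 of WT. Both Cdc42-/- libraries lay above both WT libraries for 16 genes (39%, against 28.9% of all genes) and below both for 7 (17.1%, against 27.1%).

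Between Cdc42-/- and Cdc42+/-, Gbp2, Iigp1 and Gbp3 were higher in Cdc42-/- and Usp18, Ifi27l2a and Dhx58 lower. These 6 of 41 are 14.6%, against 8.22% of all genes tested, with 4.68% of all genes higher and 3.54% lower. The median log2 fold change was -0.00, against -0.01 over all genes, and 0.32 without replicate 2 of Cdc42-/-. Libraries did not overlap for 15 genes higher in Cdc42-/- (36.6%, against 28.6% of all genes) and for 9 lower (22%, against 30.4%). Any pair of these comparisons shares the libraries of 1 genotype, so their values are not independent of each other.

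**Figure D3:**
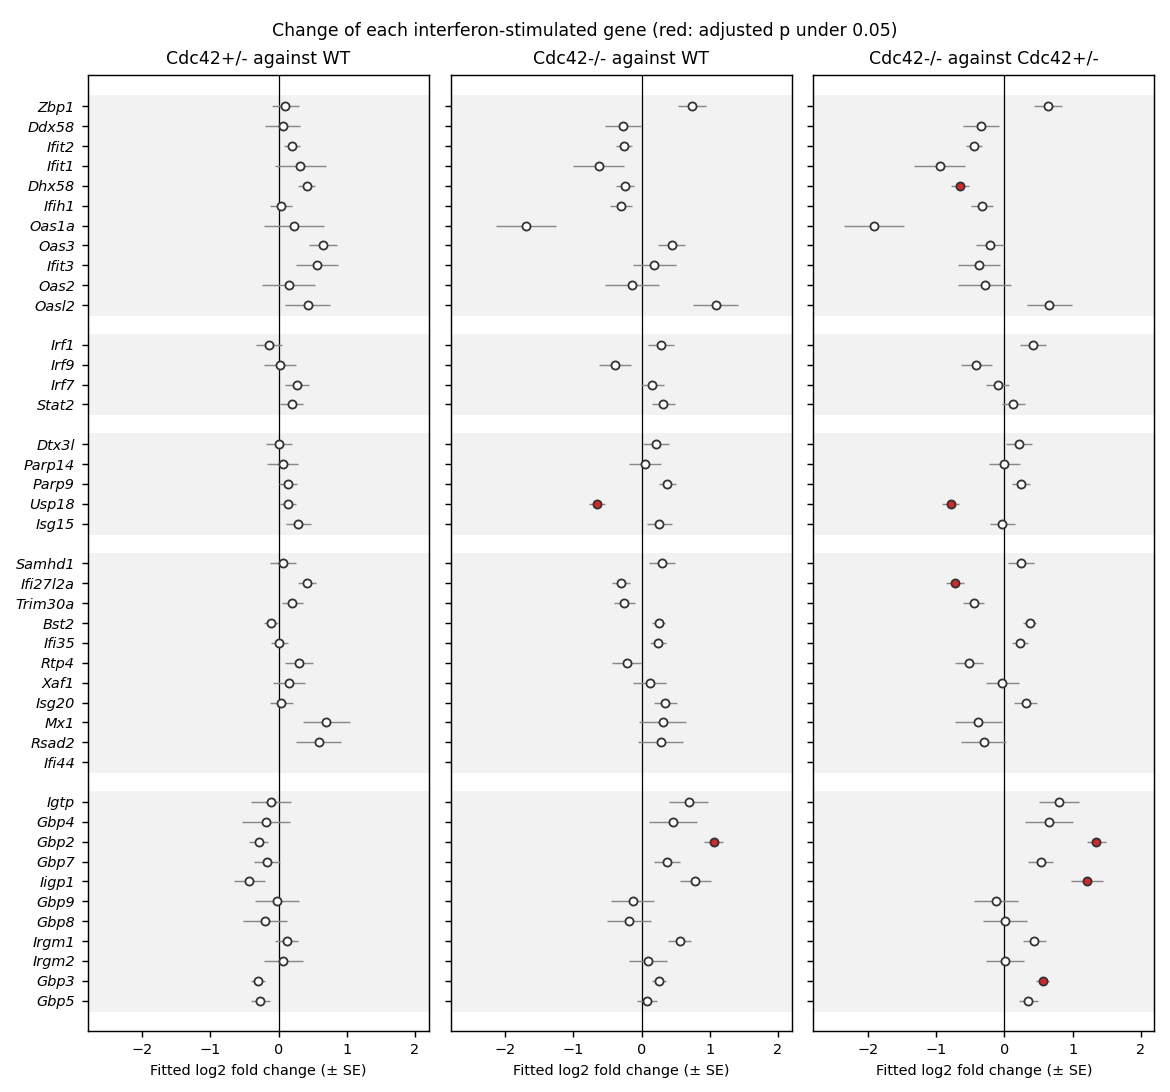
Fitted log2 fold change of each of the 41 tested genes with its SE (bars) in the 3 comparisons, grouped by role as in the plot of levels, with genes past an adjusted p of 0.05 filled red. No gene is filled for Cdc42+/- against WT, 2 for Cdc42-/- against WT and 6 for Cdc42-/- against Cdc42+/-, and GTPases lie mostly to the left of 0 in the first comparison and to the right in the others.

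The GTPases, most of them strong targets of interferon gamma, act on the membranes of vacuoles that hold microbes. They comprise 7 guanylate-binding proteins (Gbp2, Gbp3, Gbp4, Gbp5, Gbp7, Gbp8, Gbp9) and 4 immunity-related GTPases (Igtp, Irgm1, Irgm2, Iigp1). Of the 11, 1 was called higher in Cdc42-/- against WT (9.09%, against 6.86% of all genes) and 3 against Cdc42+/- (27.3%, against 4.68%), and 0 were called lower. With only the compared genotypes in the fit, Gbp2 was the only GTPase called in either comparison. The median log2 fold change was 0.37 for Cdc42-/- against WT, with 9 of 11 values above 0, and 0.53 against Cdc42+/-, with 10 of 11 above 0. The Cdc42-/- libraries differed here: all 11 genes were above the WT mean in replicate 1 (median 0.65) and 6 of 11 in replicate 2 (median 0.09). For Cdc42+/- against WT it was -0.19, with 9 of 11 below 0, and in 8 of the 11 (72.7%, against 17% of all genes) both Cdc42+/- libraries lay below both WT libraries.

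Gbp2 (chr3:142620663-142638008, GRCm38.p6) was at 67.8 and 66.8 RPKM for WT mice, 58.7 and 51.2 for Cdc42+/- mice and 160 and 125 for Cdc42-/- mice. Both Cdc42-/- libraries were higher than every other library, and both Cdc42+/- libraries were the lowest. The mean rose 2.12-fold from WT to Cdc42-/-, from 67.3 ± 0.649 to 142 ± 24.2 RPKM (SD, n = 2; log2 fold change 1.06, SE 0.14, adjusted p 0.00875). Against Cdc42+/- (55 ± 5.34 RPKM) it was 2.59-fold higher (1.35, SE 0.14, adjusted p 0.00883). This difference from Cdc42+/- missed the threshold in 2 of 14 alternatives. The change against WT also passed without replicate 2 of Cdc42-/- (1.23, adjusted p 0.000653) and without replicate 1 (0.89, adjusted p 0.00125). Over 14 alternatives the adjusted p against WT ranged from 0.000653 to 0.0906, and it missed the threshold where either WT library was left out.

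Iigp1 loads onto parasite vacuoles. Its level was 62.7 and 65.8 RPKM for WT mice, 56.1 and 40.2 for Cdc42+/- mice and 136 and 91.5 for Cdc42-/- mice. The Cdc42-/- libraries were again highest and the Cdc42+/- libraries lowest, with a wide gap within each knockout genotype. Against Cdc42+/- (48.1 ± 11.2 RPKM) the Cdc42-/- mean of 114 ± 31.4 RPKM was 2.36-fold higher (log2 fold change 1.21, SE 0.23, adjusted p 0.0312). It also passed without replicate 2 of Cdc42-/- (adjusted p 0.00364) and without replicate 1 (adjusted p 0.00932), and missed with only the libraries of both knockout genotypes in the fit (adjusted p 0.0937).

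Gbp3 (chr3:142560016-142573213), a neighbour of Gbp2, had tighter replicates. It was at 46.6 and 42.4 RPKM for WT mice, 36 and 35.9 for Cdc42+/- mice and 52.5 and 54.7 for Cdc42-/- mice. The 3 genotypes did not overlap, with Cdc42+/- lowest. Cdc42-/- was 1.49-fold higher than Cdc42+/- (53.6 ± 1.5 against 35.9 ± 0.104 RPKM; log2 fold change 0.56, SE 0.10, adjusted p 0.0271). About 3.75% of its 50-base stretches also occur in other genes' transcripts, mainly Gbp7 and Gbp11, so a small part of its count could be shared. Gbp3 missed the threshold in 5 of 14 alternatives, among them the fit with only the libraries of both knockout genotypes (adjusted p 0.0775).

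The remaining GTPases did not pass. Igtp was at 147 and 137 RPKM for WT mice, 136 and 127 for Cdc42+/- mice and 319 and 165 for Cdc42-/- mice. Gbp4 was at 90.4 and 79.1 RPKM for WT mice, 76.7 and 71.8 for Cdc42+/- mice and 176 and 77.4 for Cdc42-/- mice. In both genes replicate 1 of Cdc42-/- was far above the other libraries, and in Gbp4 replicate 2 lay below both WT libraries. Irgm1, which controls the other immunity-related GTPases, was at 56.4 and 57.8 RPKM for WT mice, 63 and 61.1 for Cdc42+/- mice and 100 and 71 for Cdc42-/- mice. Gbp7 was at 67.3 and 63 RPKM for WT mice, 61.6 and 54.4 for Cdc42+/- mice and 102 and 69.2 for Cdc42-/- mice. Both genes had all Cdc42-/- libraries above all others. Irgm2, Gbp8 and Gbp9 split around WT: replicate 1 of Cdc42-/- was at 67.5, 76.9 and 83.4 RPKM and replicate 2 at 35.3, 37.6 and 39.6 RPKM, with WT means of 46.1, 61.1 and 63.4 RPKM. Gbp5 was at 48.7 and 40.3 RPKM in Cdc42-/- and 41.9 ± 1.07 RPKM in WT. Reads of Gbp8 (18.1% of its 50-base stretches shared with Gbp11, Gbp10 and Gbp9), Gbp7 (12.7%) and Igtp (11.8%, shared with Irgm2) could have been divided among relatives in the authors' counting.

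The GTPase genes lie in clusters. Gbp5, Gbp7, Gbp3 and Gbp2 follow each other on chr3:142496934-142638008, and Gbp8, Gbp9 and Gbp4 on chr5:105012513-105139586. Of the chromosome 3 cluster, all 4 genes were lower in both Cdc42+/- libraries than in both WT libraries, as were 17% of all genes. In the chromosome 5 cluster replicate 2 of Cdc42-/- was below both WT libraries for all 3 genes, at 37.6 RPKM for Gbp8, 39.6 RPKM for Gbp9 and 77.4 RPKM for Gbp4. Neighbouring genes are not independent replicates of a condition.

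Of the 11 sensors of foreign nucleic acids and RNA-binding effectors, Dhx58 alone passed, lower in Cdc42-/- than in Cdc42+/-. The group holds the RIG-I-like receptors Ddx58 (RIG-I), Ifih1 (MDA5) and Dhx58 (LGP2), the nucleic acid sensor Zbp1, the Ifit proteins, which bind viral RNA, and the oligoadenylate synthetases and their relative Oasl2. All 11 had a log2 fold change above 0 in Cdc42+/- against WT (median 0.23), as did 56.6% of all genes, without passing the test. The median difference from the WT mean was 0.37 in replicate 1 of Cdc42+/- and 0.08 in replicate 2. For Cdc42-/- against WT 7 of 11 were below 0 (median -0.24) and 0 passed, and against Cdc42+/- 9 of 11 were below 0 (median -0.34) and 1 passed (9.09%, against 3.54% of all genes lower). In this last comparison both Cdc42-/- libraries lay below both Cdc42+/- libraries for 5 genes (45.5%, against 30.4% of all genes) and above for 2 (18.2%, against 28.6%), and 4 overlapped. The difference between this group and the GTPases was not tested. The 3 with an unadjusted p under 0.05 for Cdc42-/- against WT (27.3%, against 29.3% of all genes) were Oas1a, Zbp1 and Oasl2, which went in different directions.

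Dhx58 (chr11:100694884-100704271), a regulator of the other RIG-I-like receptors, was at 12.7 and 11.5 RPKM for WT mice, 16.3 and 16.3 for Cdc42+/- mice and 10.4 and 9.67 for Cdc42-/- mice. The genotypes did not overlap, with Cdc42+/- highest and Cdc42-/- lowest. The Cdc42-/- mean was 0.615 times that of Cdc42+/- (10 ± 0.533 against 16.3 ± 0.00578 RPKM; log2 fold change -0.65, SE 0.13, adjusted p 0.0344). Dhx58 missed the threshold in 7 of 14 alternatives, among them the fit with only the libraries of both knockout genotypes (adjusted p 0.0871).

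Oas1a makes the oligoadenylates that activate RNase L. It was at 8.22 and 7.86 RPKM for WT mice, 10.7 and 8.57 for Cdc42+/- mice and 0.718 and 3.6 for Cdc42-/- mice. Every Cdc42-/- library was under every other library, with 15 and 62 reads behind the low values. It did not pass against WT (log2 fold change -1.69, adjusted p 0.0607) or Cdc42+/- (-1.91, adjusted p 0.0527), and replicate 1 of Cdc42-/- was 0.2 times replicate 2. It was called lower in both comparisons with array weights and with either Cdc42-/- library left out, and against Cdc42+/- also by voom, with upper-quartile scaling and with a minimum of 2 RPKM. Of its 50-base stretches 57.6% also occur in Oas1g or Oas1b transcripts, which makes its count uncertain. Among its relatives, Oas1c of the second list below was also lowest in Cdc42-/-, at 12.9 and 11.4 RPKM for WT mice, 11.7 and 13 for Cdc42+/- mice and 9.45 and 5.99 for Cdc42-/- mice, without passing. Oas3 was at 7.99 and 8 RPKM for WT mice, 13.4 and 12.8 for Cdc42+/- mice and 9.08 and 13.8 for Cdc42-/- mice, higher in every knockout library. Oasl2 was at 3.41 and 3.8 RPKM for WT mice, 5.17 and 5.19 for Cdc42+/- mice and 5.82 and 13.1 for Cdc42-/- mice. Oas2 was at 3.54 and 4.87 RPKM for WT mice, 5.21 and 4.29 for Cdc42+/- mice and 2.13 and 6.03 for Cdc42-/- mice, with overlapping genotypes. Oas1a, Oas2, Oas3 and Oasl2 were lower in replicate 1 of Cdc42-/- than in replicate 2, while Oas1c and Oas1b (19.5 against 9.63 RPKM), both named after their values were seen, were higher.

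Zbp1, which triggers necroptosis, was at 61.9 and 55.4 RPKM for WT mice, 65.1 and 60.7 for Cdc42+/- mice and 122 and 80.1 for Cdc42-/- mice. Both Cdc42-/- libraries were above all others, with replicate 1 highest. Its adjusted p against WT was 0.0653, and it ranged from 0.00106 to 0.292 over 14 alternatives, on either side of the threshold. The Ifit genes sit together on chromosome 19. Ifit1 was at 12 and 16.6 RPKM for WT mice, 21.6 and 14.8 for Cdc42+/- mice and 12.9 and 5.81 for Cdc42-/- mice. Ifit2 was at 19.9 and 17.9 RPKM for WT mice, 20.9 and 22.7 for Cdc42+/- mice and 15.5 and 15.8 for Cdc42-/- mice, with no overlap between genotypes. Ifit3 was at 6.57 and 4.5 RPKM for WT mice, 11 and 6.58 for Cdc42+/- mice and 7.92 and 5.1 for Cdc42-/- mice, and 51.2% of its 50-base stretches also occur in Ifit3b. Ifih1 spanned 8.75 to 13.5 RPKM and Ddx58 18.2 to 32.9 RPKM over the 6 libraries, with the lowest value of each in a Cdc42-/- library.

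The 4 transcription factors that carry the interferon signal did not pass in any comparison. Irf9, the DNA-binding part of the type I complex, was at 65.1 and 61.8 RPKM for WT mice, 67 and 61.8 for Cdc42+/- mice and 62.5 and 37.3 for Cdc42-/- mice. Replicate 2 of Cdc42-/- alone was low. Irf1, the main secondary factor of interferon gamma, was at 98.8 and 105 RPKM for WT mice, 85.5 and 99.6 for Cdc42+/- mice and 150 and 103 for Cdc42-/- mice, with replicate 1 of Cdc42-/- alone high. Stat2 was at 27.7 and 28.1 RPKM for WT mice, 32.3 and 31.6 for Cdc42+/- mice and 41.9 and 29.2 for Cdc42-/- mice. Irf7, the amplifier of interferon alpha production, ranged from 31.4 to 47.2 RPKM, and its Cdc42+/- libraries overlapped both other genotypes.

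Among Isg15, the ubiquitin-like protein attached to targets during an interferon response, and its regulators, Usp18 fell in Cdc42-/-. Usp18 (chr6:121245906-121270917) removes Isg15 from proteins and also blocks the type I interferon receptor. It was at 22.2 and 22.8 RPKM for WT mice, 26.4 and 23.4 for Cdc42+/- mice and 14 and 13.8 for Cdc42-/- mice. The Cdc42-/- libraries were close to each other and below all others. The mean fell to 0.619 times WT, from 22.5 ± 0.412 to 13.9 ± 0.181 RPKM (a log2 fold change of -0.65, SE 0.12, adjusted p 0.0204), and was 0.559 times that of Cdc42+/- (-0.79, SE 0.12, adjusted p 0.0161). The change against WT was as large without replicate 2 of Cdc42-/- (-0.64, adjusted p 0.0134) as without replicate 1 (-0.67, adjusted p 0.00708). It did not pass with only the WT and Cdc42-/- libraries in the fit (adjusted p 0.0784). Usp18 missed the threshold in 6 of 14 alternatives against WT and in 5 of 14 against Cdc42+/-. Over 14 alternatives its adjusted p against WT ranged from 0.00708 to 0.146. The annotated gene Gm44148 overlaps Usp18, and because the strand setting of the counting is not given in the sources used here, their reads cannot be told apart.

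Isg15 itself was at 18.4 and 22.1 RPKM for WT mice, 29.3 and 21.1 for Cdc42+/- mice and 23.9 and 24.6 for Cdc42-/- mice, and did not pass in any comparison. The adjoining genes Parp9 and Dtx3l, whose products act as a pair in interferon signalling and DNA repair, and Parp14 next to them were not called either. Parp9 was at 31.2 and 33 RPKM for WT mice, 37.2 and 33.9 for Cdc42+/- mice and 46.4 and 38.2 for Cdc42-/- mice, without overlap. Dtx3l and Parp14 were highest in replicate 1 of Cdc42-/-, at 71.3 and 67.5 RPKM, and at 48.4 and 40.5 RPKM in replicate 2.

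Of the 11 antiviral effectors, 10 were tested, and Ifi27l2a alone passed in any comparison, lower in Cdc42-/- than in Cdc42+/- (1 of 10, or 10%, against 3.54% of all genes lower and 8.22% in either direction). Ifi27l2a (chr12:103433873-103443680) was at 164 and 183 RPKM for WT mice, 254 and 212 for Cdc42+/- mice and 137 and 144 for Cdc42-/- mice. The genotypes did not overlap, with Cdc42+/- highest and Cdc42-/- lowest. Its mean in Cdc42-/- was 0.602 times that in Cdc42+/- (140 ± 5.29 against 233 ± 29.8 RPKM; log2 fold change -0.72, SE 0.13, adjusted p 0.0259). The call was absent in 6 of 14 alternatives, among them the fit with only the libraries of these genotypes (adjusted p 0.079). The annotation places Ifi27 across the gene. Trim30a, a ubiquitin ligase, had the same order, with 54.3 and 52.9 RPKM for WT mice, 63.1 and 60.4 for Cdc42+/- mice and 51.7 and 39.2 for Cdc42-/- mice. Bst2 (tetherin, which holds budding virus at the membrane) had the reverse order, with 49.2 and 48.8 RPKM for WT mice, 47 and 43.5 for Cdc42+/- mice and 57.7 and 59.6 for Cdc42-/- mice. Samhd1 was at 321 and 297 RPKM for WT mice, 324 and 320 for Cdc42+/- mice and 460 and 314 for Cdc42-/- mice.

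The other effectors had smaller or less even differences. Isg20, an exonuclease, was at 16.7 and 16.2 RPKM in Cdc42-/- against 12.3 and 13 RPKM in WT, and Ifi35 at 56 and 54.4 RPKM against 51.1 and 42.6 RPKM. Rtp4 was at 23.5 and 17.7 RPKM for WT mice, 29 and 22.2 for Cdc42+/- mice and 19.4 and 15.5 for Cdc42-/- mice. Xaf1 ranged from 11.8 to 20 RPKM, with both extremes in Cdc42-/-. Mx1 was at 2.71 and 1.64 RPKM for WT mice, 5.3 and 3.08 for Cdc42+/- mice and 2.11 and 3.86 for Cdc42-/- mice. Rsad2 was at 1.29 and 2.41 RPKM for WT mice, 3.68 and 2.76 for Cdc42+/- mice and 1.67 and 3.33 for Cdc42-/- mice. For these low genes both Cdc42+/- libraries were above both WT libraries and neither passed, with 61 to 353 reads per library for Mx1 and 70 to 214 for Rsad2.

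The Cdc42-/- libraries differed from each other, and not in the same way for every role. On the log2(RPKM + 1) scale the median absolute difference between replicates over the 41 genes was 0.11 for WT, 0.13 for Cdc42+/- and 0.55 for Cdc42-/-, against 0.16, 0.12 and 0.3 over all genes. Replicate 1 of Cdc42-/- exceeded replicate 2 by at least 0.5 in 18 genes, against 11.2% of all genes, and replicate 2 exceeded replicate 1 by as much in 6, against 17.3%. Differences of that size numbered 0 and 1 in WT (against 5.04% and 6.07% of all genes) and 3 and 0 in Cdc42+/- (against 2.53% and 2.62%). Whatever the size, 29 of the 41 were higher in replicate 1 of Cdc42-/-, against 46% of all genes. Of the GTPases 10 of 11 were higher in replicate 1 (median difference 0.57). The same held for 5 of 11 sensors (-0.03), 6 of 10 antiviral effectors (0.04), 4 of 4 transcription factors (0.53) and 4 of 5 in the group of Isg15 (0.27). The difference between roles was not tested. The 6 genes higher in replicate 2 by at least 0.5 were Oas1a, Oas2, Oas3, Oasl2, Mx1 and Rsad2. Replicate 2 is the library with 1504 RPKM of myeloid markers and with Y-linked reads, and the part of these in the difference was not tested. In Cdc42+/- a smaller shift was seen: replicate 1 was higher in 35 of 41 genes, against 50% of all genes, with a median difference of 0.11.

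**Figure D4:**
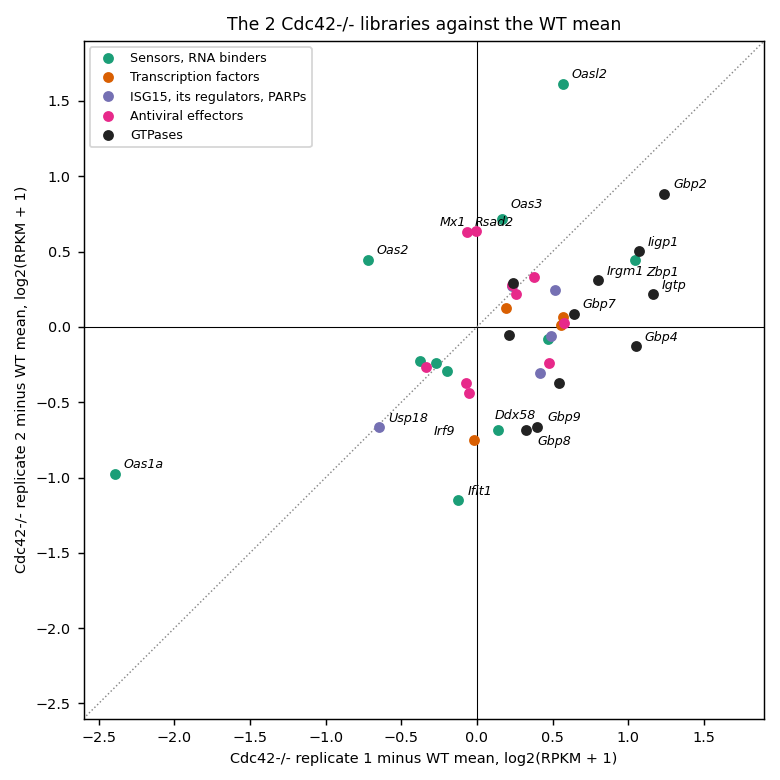
Difference of each Cdc42-/- library from the WT mean for the 41 tested genes, in log2(RPKM + 1) units, with replicate 1 on the x axis, replicate 2 on the y axis, equal values on the dotted line and colours for roles. Black points (GTPases) lie right of 0 in replicate 1 and below the dotted line except for Gbp3, while Gbp2, Iigp1 and Zbp1 are above 0 in both libraries and Usp18 and Oas1a below 0 in both.

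Which genes passed against WT depended on which Cdc42-/- library was used. Without replicate 2, 16 genes passed, of which 14 were higher (Dtx3l, Gbp2, Gbp4, Gbp7, Igtp, Iigp1, Irf1, Irgm1, Irgm2, Parp14, Parp9, Samhd1, Stat2, Zbp1) and 2 lower (Oas1a, Usp18), where 19.6% of all genes passed. Without replicate 1, 15 passed, of which 5 were higher (Gbp2, Irgm1, Oas3, Oasl2, Zbp1) and 10 lower (Ddx58, Gbp8, Gbp9, Ifit1, Irf9, Irgm2, Oas1a, Parp14, Trim30a, Usp18), where 36.2% of all genes passed. Irgm2 and Parp14 were called in opposite directions by the 2 libraries. Gbp2, Irgm1 and Zbp1 were called higher, and Oas1a and Usp18 lower, with either. In such fits the lone library is assumed to vary like the other groups. Both fits hold the same WT and Cdc42+/- libraries, so calls made in both are not independent of each other. Without replicate 1 or 2 of WT 0 passed, where 2.11% and 2.19% of all genes did, and without replicate 1 or 2 of Cdc42+/- Gbp2 alone passed, where 4.46% and 4.57% of all genes did. Against Cdc42+/-, 19 genes passed without replicate 2 of Cdc42-/- (15.4% of all genes) and 21 without replicate 1 (34.8%), while 1 passed without replicate 1 or 2 of WT (2.12% and 2.28% of all genes). Without either Cdc42+/- library 0 passed, as did 0% of all genes.

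The genes that carry or restrain the interferon signal were read from a separate list of 49 symbols, of which 39 were in the tables and 38 tested. In Cdc42-/- against WT 10 of the 38 passed (26.3%, against 11.4% of all genes), 6 higher and 4 lower. Of these 10, Irf8 alone passed under all 14 alternatives, and the highest adjusted p of the others lay between 0.101 (Irf4) and 0.247 (Ptpn1). Both chains of the interferon gamma receptor rose, although their adjusted p reached 0.232 (Ifngr1) and 0.176 (Ifngr2) under the alternatives. Ifngr2 went from 22.6 and 24.1 RPKM in WT to 36.7 and 38.3 RPKM (a log2 fold change of 0.66, SE 0.13, adjusted p 0.0311), with 17.8 and 22.1 RPKM in Cdc42+/-. Ifngr1 went from 82.4 and 86 RPKM to 108 and 124 RPKM (0.45, SE 0.11, adjusted p 0.0494), with 85.2 and 82.7 RPKM in Cdc42+/-. Of the type I receptor, Ifnar2 fell from 36.5 and 33.7 RPKM to 23.8 and 22.1 RPKM (-0.59, SE 0.11, adjusted p 0.0223), with 31.3 and 32 RPKM in Cdc42+/-. Its partner Ifnar1 was at 50.6 and 46.4 RPKM for WT mice, 48.2 and 52.3 for Cdc42+/- mice and 52.6 and 35.1 for Cdc42-/- mice, and did not pass. Il10rb, a chain shared by the receptors for interferon lambda and IL-10, fell from 49 ± 3.26 to 30.8 ± 0.0141 RPKM (-0.65, adjusted p 0.0134).

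Ifng, the gene for interferon gamma, rose from 1.45 and 2.22 RPKM in WT to 4.56 and 7.42 RPKM in Cdc42-/- (log2 fold change 1.28, SE 0.28, adjusted p 0.0374), with 2.37 and 2 RPKM in Cdc42+/-. Few reads lay behind these levels, 28 and 23 in WT and 61 and 82 in Cdc42-/-. NK and CD8 T cell markers (3 of 4 measured) summed to 10.7 RPKM in replicate 2 of Cdc42-/- and to 7.85 to 8.85 RPKM in the other libraries. Of these, Cd8a was at 0.401 and 0.97 RPKM for WT mice, 0.229 and 0.413 for Cdc42+/- mice and 1.13 and 4.23 for Cdc42-/- mice, and Klrb1c at 0 and 0.158 RPKM in Cdc42-/-. The part of such cells in the level of Ifng was not tested. The factors Irf8 (11.1 ± 0.21 to 34 ± 1.03 RPKM, 1.53, adjusted p 0.00355) and Irf4 (14.8 ± 0.903 to 31.6 ± 2.52 RPKM, 1.04, adjusted p 0.0107) also rose, and so did the phosphatase Ptpn1 (54.9 ± 3.95 to 76.7 ± 3.37 RPKM, 0.48, adjusted p 0.0434). The DNA sensor Aim2 fell from 35.7 ± 2.13 to 19.5 ± 4.5 RPKM (-0.86, adjusted p 0.0361), and the corepressor Irf2bp2 from 35.9 ± 0.00898 to 24.6 ± 1.61 RPKM (-0.53, adjusted p 0.0327). Irf8 is also a factor of myeloid and B cells. Its level was 34.7 RPKM in replicate 1 of Cdc42-/- and 33.2 RPKM in replicate 2, and the part of other cells in it was not tested. Against Cdc42+/-, 6 of the 38 passed (15.8%, against 8.22%): Irf8, Irf4 and Ifngr2 higher, and Il10rb, Irf2bp2 and Aim2 lower. In Cdc42+/- against WT 0 of 38 passed, by limma and by voom, with 0 at an unadjusted p under 0.05. The count against WT was 2 with only the WT and Cdc42-/- libraries in the fit (4.44% of all genes), 3 with array weights (7.23%), 16 without replicate 2 of Cdc42-/- (19.6%) and 22 without replicate 1 (36.2%).

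The kinases Jak1, Jak2 and Tyk2 and the inhibitor Socs1 did not pass. Jak1 was at 184 and 164 RPKM for WT mice, 173 and 178 for Cdc42+/- mice and 150 and 114 for Cdc42-/- mice. Tyk2, the kinase of Ifnar1, was at 34.4 and 32.4 RPKM for WT mice, 35.9 and 35.5 for Cdc42+/- mice and 29.2 and 24.4 for Cdc42-/- mice. Jak2 ranged from 42.2 to 48.4 RPKM. Socs1, the feedback inhibitor of these kinases, was at 37.5 and 39.8 RPKM for WT mice, 30.4 and 31.5 for Cdc42+/- mice and 34.7 and 27.5 for Cdc42-/- mice, lower in every knockout library but not past the threshold.

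A second list of other interferon-regulated genes, of which 79 were tested, passed about as often as all genes: 8 of 79 in Cdc42-/- against WT (10.1%, against 11.4%) and 7 against Cdc42+/- (8.86%, against 8.22%). In Cdc42+/- against WT 0 of 79 passed, by limma and by voom, with 4 at an unadjusted p under 0.05. The count against WT was 4 with only the WT and Cdc42-/- libraries (4.44% of all genes), 27 without replicate 2 of Cdc42-/- (19.6%) and 35 without replicate 1 (36.2%). Of the 8, Ly6a alone passed under all 14 alternatives, and the highest adjusted p of the others lay between 0.0512 (Slfn9) and 0.216 (Mndal). Ly6a, the surface antigen Sca-1, rose from 61.3 ± 2.33 to 223 ± 5.95 RPKM (a log2 fold change of 1.84, SE 0.14, adjusted p 0.00182). Cd274, which encodes the checkpoint ligand PD-L1, rose from 28.6 ± 2.6 to 44.8 ± 2.47 RPKM (0.63, adjusted p 0.0222). Ifitm2, a membrane protein that blocks viral fusion, rose from 7.13 ± 0.451 to 62.7 ± 41.7 RPKM (2.80, adjusted p 0.0186), with 33.2 RPKM in replicate 1 of Cdc42-/- and 92.2 RPKM in replicate 2. Slfn9, Ddx60, Trim30d, Shisa5 and Mndal fell, by 1.65, 1.13, 0.84, 0.94 and 0.66 on the log2 scale. Slfn9 (16.9 ± 0.252 to 4.71 ± 0.363 RPKM, adjusted p 0.00386) and Ddx60, a relative of the RIG-I-like receptors (11.9 ± 0.898 to 4.88 ± 0.708 RPKM, adjusted p 0.0155), were at about the same level in both Cdc42-/- libraries. Against Cdc42+/-, Ly6a, Cd274 and Ifitm2 were called higher and Slfn9, Ddx60, Trim30d and Mndal lower. Ifitm3, chosen after its values were seen, reached 18.3 and 149 RPKM for Cdc42-/- mice, against 0.721 to 5.43 RPKM elsewhere, the higher value in replicate 2, where the myeloid markers also differed; the part of other cells in Ifitm2 and Ifitm3 was not tested.

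The authors' deposited tables hold their own test, which is not named in the sources used here. For Cdc42+/- against WT, the authors' deposited table gives an adjusted p under 0.05 for 4 of the 42 genes, against 2.28% of all genes: Oas3 (log2 fold change 0.684), Ifi27l2a (0.399), Gbp3 (-0.34) and Iigp1 (-0.446). These are among the genes whose Cdc42+/- and WT libraries did not overlap above. For Cdc42-/- against WT, the authors' deposited table gives 2 of 42, against 8.66%: Gbp2 (1.04) and Iigp1 (0.785). Usp18 has a log2 fold change of -0.735 and an adjusted p of 0.213 in the authors' deposited table.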

How the data were processed

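RNA was sequenced in 6 libraries, 2 per genotype. TopHat and mm10 are named in the submitters' processing notes; the counting tool, annotation and strand setting are not given in the sources used here. The deposited library columns carry no unit in their headers. From the values they are RPKM made by the authors, since every value is a whole read number over a gene length and a library total. Whether single reads or read pairs were counted cannot be told from the values, and the word read stands for either. The deposited group means are a signal, reads divided by size factors by the authors. Per the file headers, the authors deposited for each gene a fold (also as log2), and p-values before and after adjustment. RPKM and group means together gave back whole reads for 100% of values in each library (tolerance 0.02), and the WT reads differed between the tables at 0 genes.

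Genes whose mean over the 6 libraries reached 0.5 RPKM (12233 of 14608) were fitted on log2(RPKM + 1) with limma 3.58.1 in R 4.3.3 (lmFit, eBayes with trend), genotype only, with Benjamini-Hochberg adjustment at 0.05. Fold changes on this scale understate the change of low genes. Every SE is limma's moderated standard error, and a ratio of means is of RPKM. The steps were tested on simulated data. Alternatives were the 2 genotypes alone, a pseudocount of 0.1, no filter or a minimum of 2 RPKM, upper-quartile scaling, voom on recovered reads, the replicate number as a block, leaving out each library, and array weights, the last chosen after seeing the data. Read floors (3 reads) cover counting error only. Depth limits the low genes most.

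The 42 genes, their roles, the 49 signalling symbols, the 83 further symbols and the marker lists were chosen with earlier results of these data known. All 42 genes are named. Genes of the other lists are named where they passed in a comparison, at most 8 per list and comparison by smallest p, and Ifnar1, Ifnar2, Ifngr1, Ifngr2, Jak1, Jak2, Tyk2, Socs1 and Ifng whatever their values; 1 result under this rule is not reported here. Promoter stretches were to come from called genes with the ISRE core; those of Gbp2 and Gbp3 met this and 4 others were added. Symbols without a row (such as Oas1g and Hbb-bs) were not analysed here. RefSeq GRCm38.p6 gave coordinates, overlaps and promoters, and GENCODE M21 transcripts the shared 50-base stretches.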

Additional observations from a re-analysis of the deposited data

How the results depend on the processing

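The counts of 0 for Cdc42+/- against WT were 0 under all 14 alternatives for the 41 interferon-stimulated genes, the signalling list and the further list. The 6 interferon-stimulated genes called as reported kept their direction under the 14 alternatives, while direction was not followed for the genes of the other lists. With only the compared genotypes in the fit, the number of interferon-stimulated genes called was 1 against WT and 1 against Cdc42+/- (2 and 6 as reported), where the share of all genes called was 4.44% and 2.19% (11.4% and 8.22%), that of the signalling list 2 and 1 (10 and 6), and that of the further list 4 and 2 (8 and 7). Array weights gave 3 for the signalling list against WT. Leaving out 1 library each, the counts ranged from 0 to 16 against WT and 0 to 21 against Cdc42+/- for the interferon-stimulated genes, from 1 to 22 and 0 to 22 for the signalling list, and from 1 to 35 and 0 to 38 for the further list; the highest came without a Cdc42-/- library and the lowest without a WT or Cdc42+/- library. The median log2 fold change ranged from 0.05 to 0.15 for Cdc42+/- against WT, from 0.02 (without replicate 1 of Cdc42-/-) to 0.26 for Cdc42-/- against WT and from -0.06 to 0.32 (without replicate 2 of Cdc42-/-) against Cdc42+/-. The cause was not tested. Replicate numbers come from the titles, which do not say that they pair mice; same-numbered deviations correlated over genes at 0.202 (WT with Cdc42-/-), 0.0177 (WT with Cdc42+/-) and -0.0343 (Cdc42+/- with Cdc42-/-). With the replicate block, 3 interferon-stimulated genes were called against WT (adding Zbp1) and 5 against Cdc42+/- (without Dhx58), where 9.35% and 6.61% of all genes were called, and 0 for Cdc42+/- against WT. Upper-quartile scaling moved the median of all genes from 0.01 to -0.06 for Cdc42-/- against WT. Over all genes, 1398 were called for Cdc42-/- against WT as reported, 547 with only these genotypes, 1329 by voom, 885 with array weights, and 4436 and 2349 without replicate 1 or 2 of Cdc42-/-.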
